A study of Homo sapiens with 87 samples.

Results

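A knockout clone of DPF1 was compared with wild-type cells by RNA-seq. The comparison takes the 3 libraries of DPF1 knockout clone 2779-11 and the 3 libraries of wild-type clone C631, which were picked by their column names in the knockout count table and make up 6 of the 87 samples of the series. Both groups are HAP1, an established, near-haploid human cell line that goes back to a patient with chronic myeloid leukaemia, and neither carries a treatment or a second genetic change per the labels. The rest of the count table supplied a second reference: 69 libraries of 23 other knockout clones, each lacking a subunit gene of the BAF chromatin-remodelling complex. RNA with a poly-A tail was turned into strand-marking libraries and sequenced in single reads of 50 bases. DPF1 is represented by 1 clone, so an effect of losing the gene and any other property of that clone cannot be told apart. Whether the libraries of a group were grown as separate cultures is not stated, and the p-values below therefore measure the spread between libraries, which may be technical. The labels do not give the bases changed in the clone.

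BAF (SWI/SNF) slides and evicts nucleosomes with the energy of ATP and so opens enhancers and promoters. DPF1 (BAF45B) belongs with DPF2, DPF3 and PHF10 to a family of subunits, of which each complex holds a single member; the DPF proteins carry a pair of PHD fingers that read acylated histone H3 tails. DPF1 and DPF3 are best known from neurons, where they enter the complex as precursors leave the cell cycle, whereas DPF2 is made in most cell types. PHF10 marks the PBAF form of the complex.

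Total counts of the 6 libraries ran from 17847158 to 22243858. Library pairs within the DPF1 group differed by more than sampling noise (chi-square per degree of freedom from 8.46 to 14.1), as did those of wild type (9.54 to 21.2), so none was a repeat deposit. Levels are given in CPM, the counts scaled to a common library total, and they compare a gene between groups, not genes with each other. The lowest value in the deposited table is 1, which equals about 0.05 CPM in these libraries. Differences are log2 fold changes with standard errors (SE) from edgeR's quasi-likelihood test, and a gene was called higher or lower at a Benjamini-Hochberg adjusted p of at most 0.05 when the log2 fold change was also 1 or more in either direction. As these are bulk libraries, fewer cells with a transcript and less transcript per cell cannot be told apart. Marker lists of other cell types were summed over all members in the count table, tested or not. The 21 epithelial genes totalled 80.2 to 104.7 CPM in the DPF1 libraries and 87.2 to 92.5 CPM in wild type. The 18 markers of A549, a lung cancer line also grown in the study, totalled 7.9 to 9.32 against 6.38 to 9.45 CPM. Those of HEK293, a kidney line, totalled 275 to 280 against 254 to 263 CPM. Each list had 1 called member: AKR1C3 of A549 higher (2.58), and CDH3 of the epithelial genes (-1.74) and PRAME of HEK293 (-1.14) lower. AKR1C3 was at 3.62, 2.93 and 2.69 against 0.280, 0.495 and 0.723 CPM. Across the 24 clones it was called higher in 11 and lower in 7. PRAME lost its call without DPF1 replicate 2 or wild-type replicate 1 or 2.

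DPF1 mRNA itself was the first check of the label. It stood at 9.14, 7.745 and 7.52 CPM in the DPF1 libraries and at 18.7, 19.8 and 22.2 CPM in wild type. The groups did not overlap, and all 3 knockout libraries lay below every wild-type library. The log2 fold change was -1.32 (SE 0.208, adjusted p = 6.94e-06). Across the 25 groups of the table the DPF1 clone had the lowest mean, 8.14 ± 0.876 CPM (SD, n = 3), and the other clones ranged from 10.37 to 23.98 CPM. A transcript therefore remained in the clone, and what protein it encodes was not measured.

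The other family members were not called. DPF2 was at 90.2, 81.5 and 82.8 CPM against 74.97, 82.9 and 79.2 CPM in wild type (log2 fold change 0.10, SE 0.09, adjusted p = 0.797), and DPF3 at 5.25, 4.45 and 4.78 against 3.92, 3.42 and 4.88 CPM (0.24, SE 0.211, adjusted p = 0.785). PHF10 gave 90.0, 86.8 and 98.6 against 98.0, 101.5 and 102.8 CPM (-0.14, SE 0.0991, adjusted p = 0.702). Libraries of the groups overlapped in all 3 genes. Of 30 tested genes for BAF subunits, DPF1 was the only one called. The core ATPase SMARCA4 and the scaffold SMARCC1 had log2 fold changes of 0.11 and 0.12. In the reverse direction, DPF1 mRNA was not called in the knockouts of DPF2 (-0.43, adjusted p = 0.255), DPF3 (0.12, adjusted p = 0.9997) or PHF10 (0.17, adjusted p = 0.771).

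**Figure D1:**
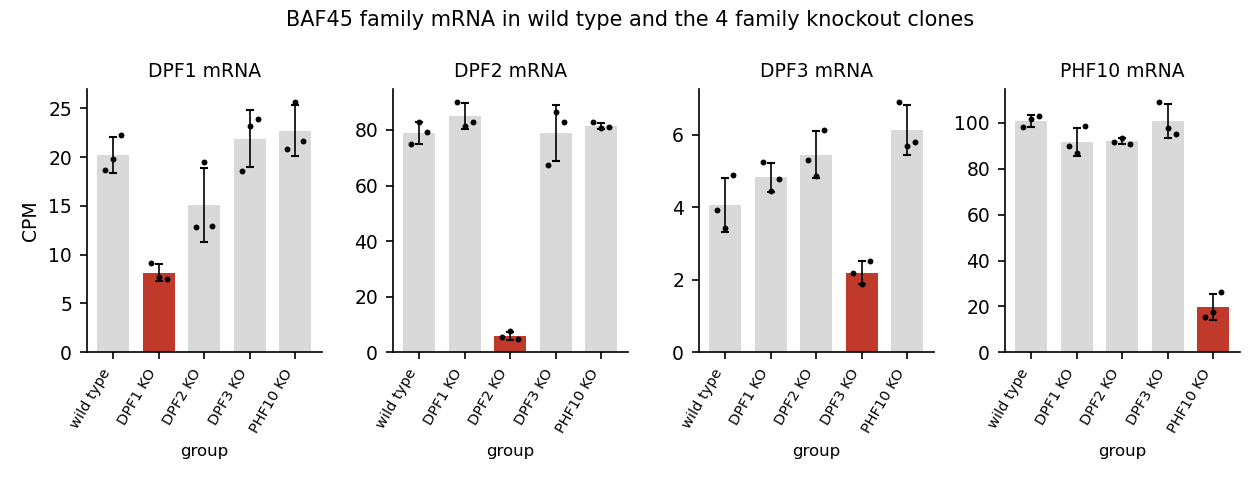
CPM of DPF1, DPF2, DPF3 and PHF10 mRNA in wild type and in the knockout clones of the 4 genes; bars are means, whiskers SD, points the 3 libraries, and red marks a gene in its own knockout. DPF1 falls to 8.14 CPM in its own clone, a shallower drop than that of DPF2 in the DPF2 clone (log2 fold change -3.73), and DPF2, DPF3 and PHF10 stay close to wild type in the DPF1 clone.

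Few genes separated the DPF1 clone from wild type. Of 16159 tested genes, 108 (0.668%) were called higher and 133 (0.823%) lower, and the median log2 fold change over all tested genes was -0.0003. The absolute log2 fold change had a median of 0.128. With only these 6 libraries in the fit, 68 genes were called higher and 87 lower. Only the DPF3 clone, with 217 called genes, had fewer than the 241 of the DPF1 clone among the 24 clones of the table, whose highest count was 1822 (SMARCA4 clone 2878-4). Lower calls reached further than higher ones: 62 of the 133 had a log2 fold change of -2 or lower, whereas 23 of the 108 had one of 2 or higher. Most called genes were weakly expressed. In 35 higher and 43 lower genes the group with more transcript reached 5 CPM, and 73 and 90 stayed under that level. In all 108 higher and in 130 of the 133 lower genes the 3 libraries of one group lay entirely beyond the 3 of the other, which was the case for 1606 (9.94%, higher) and 1356 (8.39%, lower) of all tested genes. The 3 that overlapped were CTSK, CGREF1 and AQP4.

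**Figure D2:**
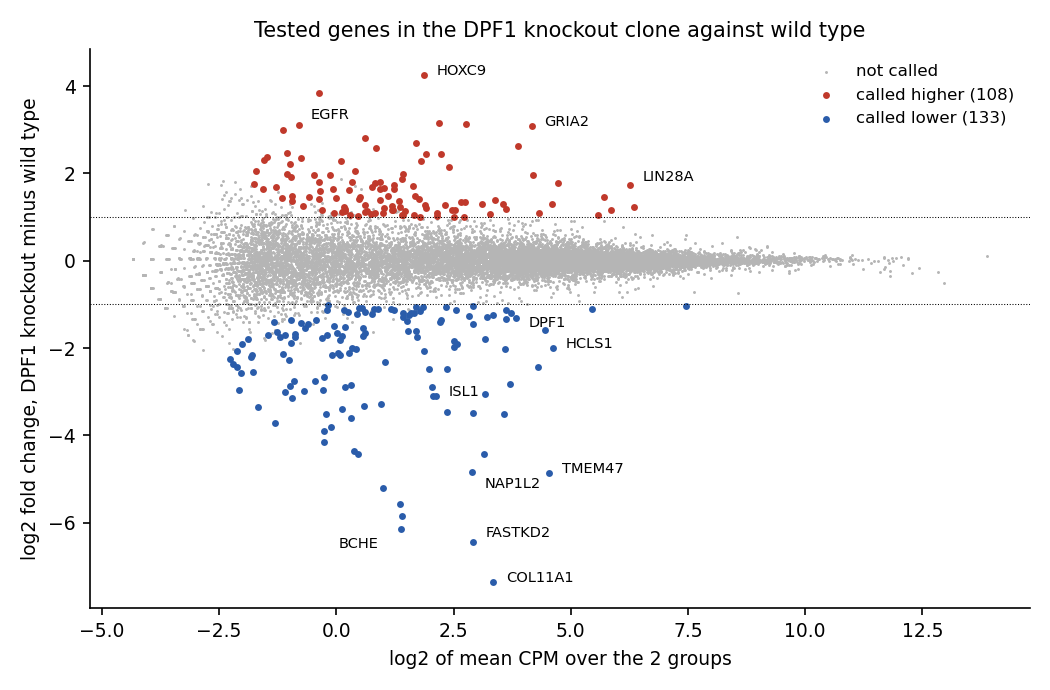
Each point is 1 of 16159 tested genes, with the log2 of its mean CPM over the groups on the x axis and the log2 fold change of DPF1 knockout minus wild type on the y axis; dotted lines mark a log2 fold change of 1 up or down. Red (108) and blue (133) points are called genes, and the blue ones reach -7.37 (COL11A1) while the red ones end at 4.26 (HOXC9).

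Because every clone was compared with the same 3 wild-type libraries, a gene with an unusual level in wild type would be called in many clones at once. The DPF1 clone was therefore also set against the mean of the other 23 clones, a reference without wild-type libraries. Against it 211 genes (1.31%) were called higher and 142 (0.879%) lower. Of the genes called against wild type, 72 of 108 higher and 68 of 133 lower ones were called in the same direction here. The 2 comparisons share the DPF1 libraries, so the shared calls are a count and not independent evidence. The p-values against the other clones likewise measure the spread between libraries and take in none of the spread between clones. They do not measure how unusual the DPF1 clone is among the clones. Another 36 higher and 63 lower genes were not called against the other clones, and HCLS1 and CNTNAP2, lower than wild type, were called higher than the other clones.

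The 250 bases before the annotated start of 4 genes are printed first, because these genes carry the account: DPF1 as the targeted gene, GRIA2 with its highest and ISL1 with its lowest level of all 25 groups in the DPF1 clone, and BCHE with the largest fall against the other clones. The windows come from RefSeq (GRCh38.p14, whereas the submitters' processing notes name GRCh37 and hg19), are written 5′ to 3′ on the gene's own strand, and have every CG dinucleotide, the site of DNA methylation and the same on both strands, in capitals. They lie at chr19:38229696-38229945 (minus strand), chr4:157219870-157220119 (plus), chr5:51383198-51383447 (plus) and chr3:165837424-165837673 (minus).
DPF1: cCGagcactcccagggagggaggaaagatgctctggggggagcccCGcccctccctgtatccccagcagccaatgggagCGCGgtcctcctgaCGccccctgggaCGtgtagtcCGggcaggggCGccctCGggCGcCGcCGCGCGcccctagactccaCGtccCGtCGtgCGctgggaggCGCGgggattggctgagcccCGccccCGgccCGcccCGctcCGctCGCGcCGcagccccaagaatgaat
GRIA2: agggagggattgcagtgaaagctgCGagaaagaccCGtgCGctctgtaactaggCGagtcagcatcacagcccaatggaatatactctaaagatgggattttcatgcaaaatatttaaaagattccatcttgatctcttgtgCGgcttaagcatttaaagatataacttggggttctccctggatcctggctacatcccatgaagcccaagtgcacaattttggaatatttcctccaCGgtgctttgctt
ISL1: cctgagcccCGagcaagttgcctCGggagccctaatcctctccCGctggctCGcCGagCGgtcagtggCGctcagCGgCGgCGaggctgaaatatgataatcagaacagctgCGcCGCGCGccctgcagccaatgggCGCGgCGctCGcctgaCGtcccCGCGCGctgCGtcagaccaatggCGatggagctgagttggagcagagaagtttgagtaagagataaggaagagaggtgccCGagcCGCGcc
BCHE: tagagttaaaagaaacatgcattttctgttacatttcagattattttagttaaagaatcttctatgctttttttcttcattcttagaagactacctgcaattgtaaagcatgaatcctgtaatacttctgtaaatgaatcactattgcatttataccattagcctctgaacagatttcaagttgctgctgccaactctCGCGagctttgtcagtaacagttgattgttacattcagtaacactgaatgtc
The DPF1 window holds 28 CG and the ISL1 window 27, counts reached by 15.5% and 17.3% of the 27305 RefSeq windows of this length. GRIA2 has 6 and BCHE 2, against a median of 11 over all windows, of which 93.6% hold at least 1. The lower genes ISL1 and BCHE thus differ widely in CG content. Windows were found for 174 of the 241 called genes and for 70.9% of all tested genes, too few for a comparison of called with other genes, and none was made.

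The genes called higher were led by a transcription factor and cell-surface and secreted proteins. GRIA2, which encodes the GluA2 subunit of AMPA-type glutamate receptors, was at 33.7, 35.9 and 26.6 CPM in the DPF1 libraries and at 4.43, 3.73 and 3.21 CPM in wild type. Every knockout library thus held several times the level of any wild-type library (log2 fold change 3.08, SE 0.269, adjusted p = 1.75e-13). Of the 23 other clones, 12 had under 1 CPM of GRIA2 and none reached the DPF1 clone's mean of 32.1 CPM; the BCL11B clone came closest at 31.8 CPM and the DPF2 clone followed at 24.1 CPM. Against the mean of the other clones the difference was 4.6 on the log2 scale (adjusted p = 5.17e-36). The DPF1 and BCL11B means lie closer together than the SD of 4.89 CPM among the DPF1 libraries.

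HOXC9, a homeobox factor of the posterior body axis, showed the largest rise among genes of at least 5 CPM. Its libraries read 7.92, 7.07 and 5.80 CPM against 0.392, 0.315 and 0.362 CPM, so that wild type was close to the lower end of detection and the DPF1 clone clearly above it (log2 fold change 4.26, SE 0.236, adjusted p = 1.19e-21). One other clone, SMARCA4 clone 2878-4, exceeded it with 7.54 CPM, and 15 clones stayed under 1 CPM. LTBR, the lymphotoxin beta receptor of the tumour necrosis factor receptor family, was at 8.51, 10.47 and 5.48 CPM against 1.46, 0.854 and 0.452 CPM (3.16, SE 0.417, adjusted p = 9.02e-08). No other clone came near: their highest mean was 2.81 CPM and 22 of 23 were under 1 CPM. TENM1, a teneurin that spans the membrane and links neurons at synapses, also had its highest mean of all groups in the DPF1 clone. Its libraries gave 5.48, 6.75 and 6.88 CPM against 0.897, 1.21 and 1.36 CPM in wild type (2.44, SE 0.218, adjusted p = 3.74e-13), and the next clone, ARID1B, had 4.595 CPM.

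FZD10, a Frizzled receptor for WNT ligands, was nearly silent in most of the series. It stood at 6.06, 5.02 and 6.18 CPM in the DPF1 libraries, at 1.63, 0.809 and 1.13 CPM in wild type (log2 fold change 2.28, SE 0.15, adjusted p = 2.49e-18), and under 1 CPM in 20 of the 23 other clones, 16 of which held the lowest possible value in every library. The 3 clones with FZD10 above 1 CPM were those of BRD7 (6.15 CPM), PHF10 (4.54 CPM) and BCL7B (4.18 CPM). VCAN, the matrix proteoglycan versican, rose from 4.99, 2.88 and 4.52 to 27.7, 25.3 and 23.0 CPM without overlap (2.62, SE 0.269, adjusted p = 5.33e-11). It was higher in 1 other clone, that of BCL7A (37.1 CPM). CECR1, a secreted adenosine deaminase, rose from 1.009, 1.62 and 1.54 to 11.04, 11.4 and 14.5 CPM (3.13, SE 0.284), and TMTC1, an enzyme of protein O-mannosylation, from 1.63, 1.80 and 2.40 to 8.69, 8.84 and 8.60 CPM (2.15, SE 0.23). In both the groups were well apart, and both were also called against the other clones (2.54 and 2.39). VSTM4 (2.70) and FAM127C (1.95) were called in the same way, FAM127C with some uncertainty because near-identical gene copies can share its reads.

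Higher calls with more transcript were fewer. LIN28A, an RNA-binding protein that blocks maturation of let-7 microRNAs, had 112.8, 106.2 and 137.3 CPM against 30.8, 35.1 and 41.5 CPM (log2 fold change 1.72, SE 0.218, adjusted p = 3.25e-08), and other clones ranged from 0.66 to 366 CPM around a median of 31.9. GALNT5, which starts mucin-type O-glycans, had 46.1, 39.8 and 36.3 against 15.4, 11.0 and 9.45 CPM (1.77, SE 0.203). MYOM1, the muscle M-band protein myomesin, stood at 64.3, 81.3 and 84.6 against 24.1, 33.5 and 25.9 CPM (1.46, SE 0.164). The other clones had a median of 79.7 CPM, and the difference from their mean, 0.98, was under the fold threshold. The same held for ANXA1 (annexin A1), called higher than wild type (1.24) and 0.88 above the other clones. PRTG (1.39), TRHDE (1.35) and SEMA3A (1.34) were called against both references, SEMA3A not when only the 6 libraries were fitted (adjusted p = 0.0766). EN1 (12.2 ± 0.9 against 4.96 ± 0.297 CPM, SD, n = 3) and FAM124B (5.24 ± 0.972 against 2.17 ± 0.596 CPM, SD, n = 3) had their highest group mean in the DPF1 clone as well, EN1 only just, since another clone reached 11.39 CPM.

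**Figure D3:**
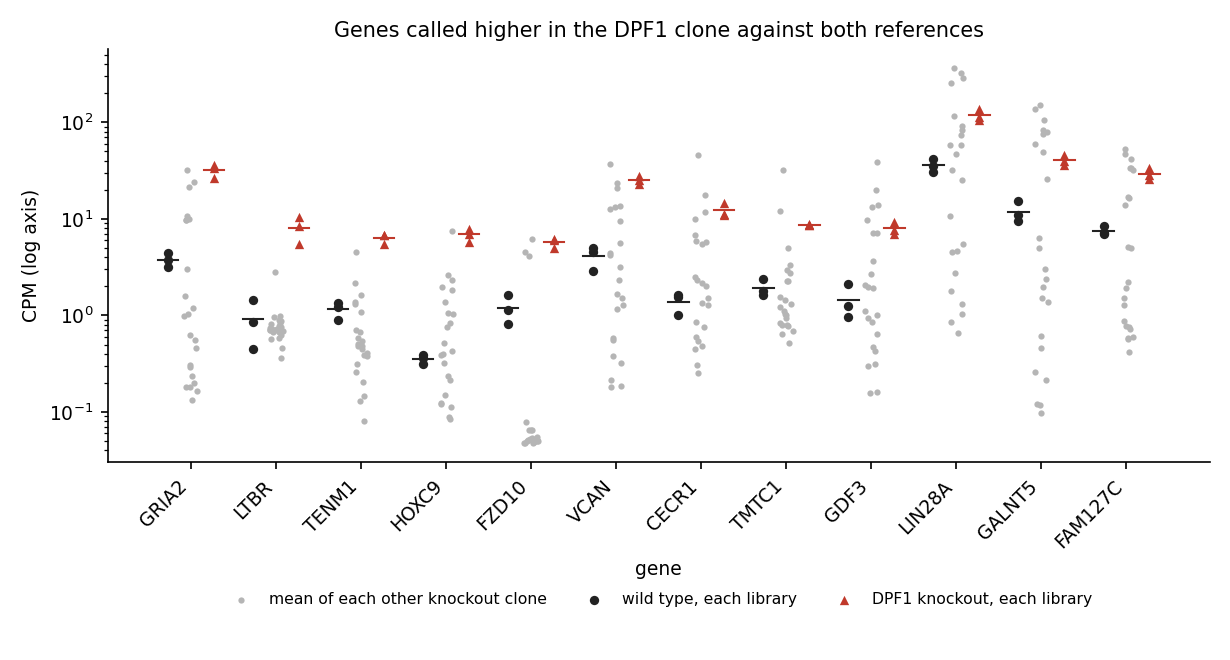
CPM on a log axis of 12 genes called higher in the DPF1 clone against wild type and against the other clones; red triangles are DPF1 libraries, black circles wild-type libraries, short lines their means, and grey points the means of the 23 other clones. All red points lie above every grey point for LTBR and TENM1, for GRIA2 the mean does (32.1 CPM), and for LIN28A, GALNT5 and FAM127C the red points lie within the spread of the other clones.

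The largest falls removed a transcript almost completely. BCHE, butyrylcholinesterase, was at 0.0453, 0.105 and 0.0537 CPM in the DPF1 libraries, which is 1 to 2 counts each, and at 5.21, 4.77 and 5.47 CPM in wild type. The log2 fold change was -6.15 (SE 0.346, adjusted p = 2.53e-21), and -7.81 when 1 was subtracted from every count, so its size depends on how the lowest values are handled. Most clones kept the gene: 17 of 23 had at least the wild-type mean, their median was 14.1 CPM, and the difference from the other clones was -6.15. BCHE was also nearly absent in the DPF2 clone (0.0653 CPM) but present in the DPF3 clone (10.3 CPM).

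NAP1L2, a nucleosome assembly protein of neurons encoded on the X chromosome, fell from 13.95, 15.2 and 13.92 to 0.633, 0.314 and 0.537 CPM (-4.83, SE 0.168, adjusted p = 4.62e-31). TMEM47, a membrane protein of cell junctions, fell from 46.0, 43.6 and 45.6 to 1.09, 1.41 and 2.20 CPM (-4.86, SE 0.256, adjusted p = 1.45e-22). STAC, an adaptor with an SH3 domain, fell from 6.56, 4.72 and 4.29 to 0.0453, 0.157 and 0.0537 CPM (-5.85, SE 0.296, adjusted p = 1.88e-23). In none of the 3 genes did the groups approach each other. The STAC value was -7.02 with 1 subtracted from every count and -6.55 without DPF1 replicate 2. All 3 were also called lower than the other clones, by -4.48, -4.23 and -4.05, though with 1 subtracted from every count STAC no longer passed there (-4.58, adjusted p = 1). SGCD, delta-sarcoglycan of the dystrophin complex, went from a mean of 13.79 CPM to 0.995, 1.57 and 1.13 CPM (-3.49, SE 0.162) and FBXL7, an F-box protein of a ubiquitin ligase, from 32.6, 32.3 and 34.5 to 5.02, 6.23 and 7.20 CPM (-2.44, SE 0.106, adjusted p = 1.59e-26). Only the ARID1A clone 618-10, at 4.09 CPM, had less FBXL7.

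Among these genes 2 developmental transcription factors had their lowest level of all 25 groups in the DPF1 clone. ISL1, a LIM-homeodomain factor of motor neurons and other progenitors, was at 0.543, 1.36 and 0.86 CPM against 8.74, 7.64 and 7.10 CPM (log2 fold change -3.10, SE 0.238, adjusted p = 1.31e-15). The other clones spanned 4.10 to 20.5 CPM, so every one of them exceeded all DPF1 libraries. The difference from their mean was -3.15 (adjusted p = 4.53e-19). NKX2-1, a factor of forebrain, thyroid and lung, was at 1.04, 1.465 and 1.075 CPM against 7.00, 7.15 and 5.88 CPM (-2.48, SE 0.281, adjusted p = 1.08e-09). Its level varied more in the other clones, from 1.60 to 43.7 CPM, and the lowest of these, the ARID1B clone, lay just above the highest DPF1 library. ARHGAP44, a GTPase-activating protein, also had its lowest group mean here (2.49 ± 1.007 against 8.89 ± 2.7 CPM, SD, n = 3).

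COL11A1, FASTKD2 and PXDN were low in most other clones as well. COL11A1, a chain of fibrillar collagen XI, showed the largest fall of all: 0.136, 0.105 and 0.108 CPM against 19.4, 19.1 and 22.2 CPM (log2 fold change -7.37, SE 0.163, adjusted p = 4.01e-41, and -8.12 with 1 subtracted from every count). It was under 1 CPM in 15 of the 23 other clones too, and far above wild type in some others, with up to 251.6 CPM. FASTKD2, a mitochondrial RNA-binding protein, was at 0.226, 0.105 and 0.161 CPM against 17.4, 13.1 and 14.2 CPM (-6.43, SE 0.255), with 17 clones under 1 CPM. Its difference from the other clones (-1.545) was no longer called without DPF1 replicate 2 (-1.32, adjusted p = 0.0631). PXDN, the basement membrane enzyme peroxidasin, was at 0.0905, 0.105 and 0.108 CPM against 3.59, 4.23 and 7.28 CPM (-5.57, SE 0.351, and -6.48 with 1 subtracted); 21 clones were under 1 CPM and the difference from the other clones was -0.27 (adjusted p = 0.893). EFS (-3.10) and PGM5 (-3.52) were likewise not called against the other clones (0.25 and 0.23). For PXDN 1 of the 23 other clones reached the wild-type mean. TAL1 (-3.06), WBP5 (-4.42), ZNF660 (-3.47), PTPN3 (-2.90) and TNMD (-2.81) were called against both references. WBP5 was nevertheless low in most other clones: 12 of the 23 lay below the DPF1 clone's mean of 0.777 CPM. Their median was 0.329 CPM, and the highest clone had 140.6 CPM.

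**Figure D4:**
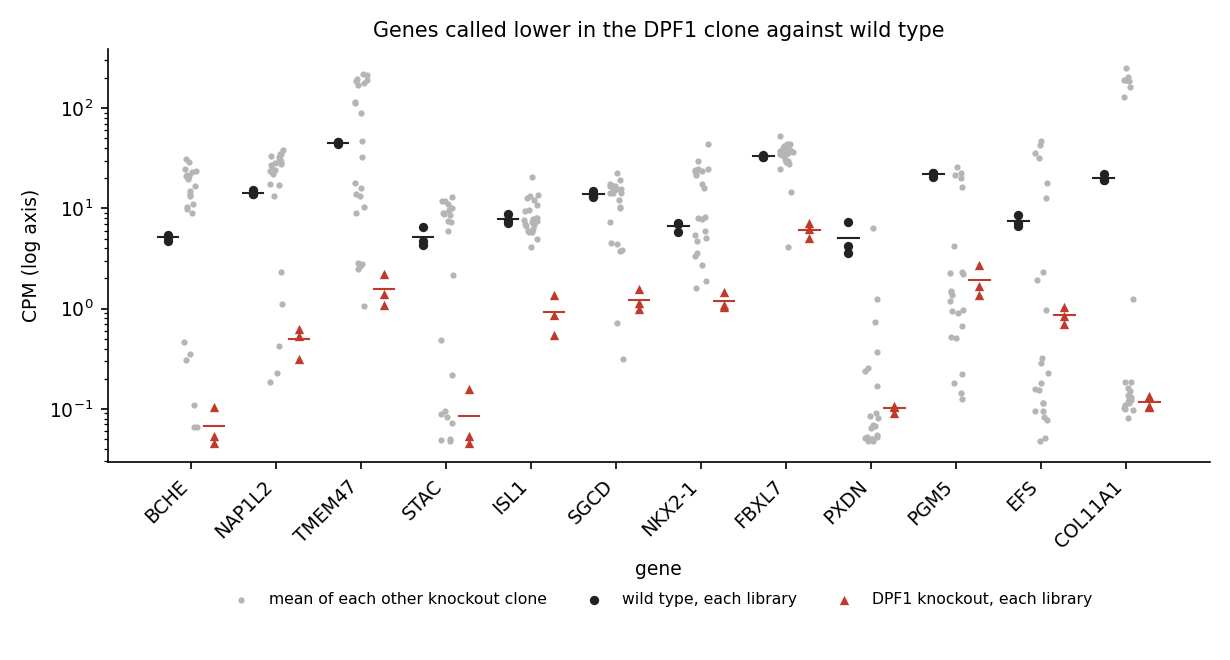
CPM on a log axis of 12 genes called lower in the DPF1 clone than in wild type, drawn as in the plot of higher genes. For BCHE, NAP1L2, ISL1, SGCD and FBXL7 most grey points lie near or above wild type; for PXDN, PGM5, EFS and COL11A1 most of them lie near or below the DPF1 libraries.

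Genes of the nervous system were examined as lists because DPF1 is one of the neuron-linked family members. The lists were drawn up with earlier results of these data known, and each is described by its counts. For all the lists below, the shares over all tested genes were 0.668% called higher and 0.823% called lower. Of 28 tested neuronal genes, 1 was called higher and 3 lower, with a median log2 fold change of -0.13. CNTNAP2, an adhesion protein of axons, fell from 9.75, 8.23 and 9.31 to 2.31, 2.67 and 1.99 CPM (-1.97, adjusted p = 6.38e-12), yet was 1.79 above the other clones, whose median was 0.307 CPM. MAP2, a dendritic microtubule protein, fell by 1.06 on the log2 scale and CNTN1, a contactin, by 1.54. CNTN1 lost its call without wild-type replicate 2 (-1.38, adjusted p = 0.0788), and MAP2 without DPF1 replicate 1 (-0.88), DPF1 replicate 2 (-0.98) or wild-type replicate 1 (-0.86). The most abundant members, UCHL1 and TUBB3, had log2 fold changes of -0.10 and 0.27 and were not called.

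Of 14 tested synapse and neurotransmitter receptor genes, GRIA2 was called higher and GABRA5 lower (median 0.13). GABRA5, a subunit of GABA-A receptors, went from 7.28, 4.32 and 5.97 to 0.995, 1.15 and 2.10 CPM (-2.06, SE 0.176, adjusted p = 8.11e-14) but differed by only -0.17 from the other clones. One of 17 tested voltage-gated channel genes was called, the sodium channel SCN9A (-1.13). Among 34 tested axon guidance genes 4 were called higher and none lower (median 0.09): the repellent SEMA3A, the ephrin receptors EPHA3 and EPHB1 and the semaphorin receptor NRP2. EPHA3 was the most abundant, with 65.1, 62.4 and 66.0 against 35.8, 29.2 and 28.4 CPM (1.05, adjusted p = 9.03e-08). SEMA3A had 9.46, 9.89 and 7.69 against 5.55, 2.79 and 2.40 CPM. These calls depended on the libraries fitted. SEMA3A was not called with only the 6 libraries in the fit (1.346, adjusted p = 0.0766), nor were EPHB1 and NRP2 (adjusted p = 0.206 and 0.132). EPHA3 had 0.99 without wild-type replicate 3, EPHB1 0.93 without DPF1 replicate 3 and 0.99 without wild-type replicate 1, and NRP2 0.98 without wild-type replicate 1 and an adjusted p of 0.083 without DPF1 replicate 2.

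Of 37 tested HOX genes, 4 were called higher and none lower, beside 0.668% and 0.823% of all tested genes. The list's median was -0.03, near the -0.0003 of all genes. Besides HOXC9 these were HOXB9 (8.78, 8.16 and 9.57 against 4.48, 3.82 and 4.84 CPM, log2 fold change 1.008), HOXC11 (1.13) and HOXD11 (2.31). HOXB9 fell short of the fold threshold without DPF1 replicate 3 (0.94) or wild-type replicate 2 (0.91), and HOXC11 lost its call without DPF1 replicate 1 (0.96), DPF1 replicate 3 (adjusted p = 0.0898), wild-type replicate 1 (adjusted p = 0.0667) or wild-type replicate 3 (0.84). HOXD11 was at 0.633, 0.628 and 0.484 against 0.056, 0.0899 and 0.181 CPM, a level of few counts, and DESeq2 did not call it (adjusted p = 0.132). With 1 subtracted from every count it gave 2.94. The most abundant members, HOXA13 and HOXA7, gave -0.22 and -0.17 and were not called. The higher calls were thus 4 single genes of 3 HOX clusters. Against the other clones HOXC9 (3.75) and HOXC11 (1.09) were called higher, whereas HOXB9 (0.68) and HOXD11 (0.16) were not called. Across the 24 clones HOXD11 was called higher than wild type in 16, and HOXC9 was called higher in 11 and lower in 4.

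Of 57 tested developmental transcription factors, 2 were called higher, among them ZIC1, and ISL1 and FOXF1 were called lower (median -0.04). ZIC1, a zinc finger factor, stayed under 1 CPM in both groups (1.76) and was not called without DPF1 replicate 2 or 3 or wild-type replicate 2 or 3, with values from 1.34 to 1.79. FOXF1, a forkhead factor of mesoderm, went from 6.67, 7.19 and 6.55 to 2.67, 2.46 and 2.80 CPM (-1.37, SE 0.164, adjusted p = 5.97e-09). The most abundant members, SOX2 and OTX2, were not called (-0.04 and -0.09). Outside the lists, SOX3, a relative of SOX2 on the X chromosome, had 1.58, 1.52 and 1.29 against 0.056, 0.18 and 0.0452 CPM, the largest higher call among weakly expressed genes (3.84, adjusted p = 1.09e-12); it was picked after its values were seen.

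Pluripotency-linked genes had the highest median of all lists, 0.36 over 19 tested members against -0.0003 over all genes. The called members were LIN28A, GDF3 and LEFTY2, and none was called lower. GDF3, a ligand of the TGF-beta family, rose from 0.953, 2.11 and 1.27 to 6.92, 7.69 and 9.35 CPM (2.44, SE 0.224, adjusted p = 9.46e-13). LEFTY2, an inhibitor of Nodal signalling, stayed under 1 CPM (1.68) and was not called without DPF1 replicate 1 or wild-type replicate 1 or 2, with values up to 1.62. POU5F1 was at 655 CPM against 514 CPM (0.35) and was not called. The list's median was 0.30 against the other clones, 0.33 against the DPF3 clone and -0.09 against the DPF2 clone. In the comparison with the DPF2 clone LIN28A was called higher (1.04), and GDF3 (0.15) and LEFTY2 (-0.25) were not called.

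Matrix and adhesion genes moved in both directions. Of 22 collagen chain genes, COL11A1 was called lower and COL9A1 higher (1.77, 2.56 and 3.49 against 1.009, 0.719 and 0.678 CPM, log2 fold change 1.70). Of 35 other matrix genes, 2 were called higher and 4 lower, with a median of 0.02. The falls included RELN, the secreted guidance protein reelin, from 13.1, 15.7 and 12.9 to 5.61, 2.83 and 3.55 CPM (-1.79, adjusted p = 6.39e-05), and MFAP2, a microfibril protein (-3.51). Integrins and cadherins had 3 lower and no higher calls among 29: CD44, a hyaluronan receptor (-2.11), the P-cadherin gene CDH3 (-1.74) and PCDH19 (-1.23). PCDH19 was not called without DPF1 replicate 1 or 2 or wild-type replicate 3 (-1.17, -1.14 and -1.08). Of 8 tested fibroblast markers, PRRX1 (-4.15) and THY1 (-1.74) were called lower and POSTN (1.38) higher. PRRX1 was called lower than wild type in 22 of the 24 clones and was not called against the other clones (-0.23, adjusted p = 0.916). Neither were CD44 (-0.67) and RELN (-0.54). COL9A1, MFAP2, CDH3, PCDH19, THY1 and POSTN were called in the same direction against both references. The summed level of all 13 listed markers was 146 to 158 CPM in the DPF1 libraries against 111 to 134 CPM in wild type. Its part in the matrix calls was not tested. With 1 subtracted from every count, PRRX1 gave -5.28 and MFAP2 -4.11. THY1 was not called without DPF1 replicate 3 (-1.48) or wild-type replicate 2 (-1.58), nor POSTN without DPF1 replicate 3 (1.21) or wild-type replicate 1 (1.19).

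Of 18 tested blood lineage genes (34 listed), 2 were called higher and 3 lower. The summed level of all 34 was 135 to 150 CPM in the DPF1 libraries and 173 to 203 CPM in wild type. This sum includes the called genes HCLS1 (mean 9.93 against 39.65 CPM) and TAL1 (1.93 against 16.13 CPM). HCLS1, a cortactin-like protein of haematopoietic cells, fell from 43.8, 39.3 and 35.9 to 11.2, 10.9 and 7.74 CPM (-1.999, SE 0.18, adjusted p = 5.44e-13), yet the other clones had a median of 2.94 CPM and the DPF1 clone was 1.20 above their mean. TAL1, a helix-loop-helix factor of blood stem cells, fell from 20.1, 12.4 and 15.9 to 1.77, 1.83 and 2.20 CPM. GATA2 and RUNX3, blood factors with more transcript, were not called (33.2 and 42.4 CPM in the DPF1 clone, 35.8 and 41.2 CPM in wild type). Of the called members HBA2, a globin gene with a near-identical copy, is uncertain and lost its call without DPF1 replicate 1 and without each wild-type replicate. Of 27 receptor tyrosine kinase genes, EGFR and AXL were called higher. EGFR was at 0.633, 0.366 and 2.10 against 0.112, 0.135 and 0.0904 CPM (3.11, SE 0.513), of which DPF1 replicate 3 made up the larger share (2.09 without it, still called, and 3.796 with 1 subtracted from every count), and AXL was not called without 4 of the 6 libraries in turn (0.92 to 1.07).

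Lists for growth and stress came next. No member was called among 34 tested E2F and replication genes (median 0.003), 30 mitosis genes (-0.02), 38 cytosolic ribosomal protein genes (0.06), 38 oxidative phosphorylation genes (0.05), 20 p53 targets (-0.02), 34 integrated stress response genes (0.19) or 19 heat shock genes (-0.04). Without the fold threshold 2 of the stress response genes passed, both higher, and none in the other 6 lists. The 13 genes of the mitochondrial genome had a median of -0.24 with no call.

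**Figure D5:**
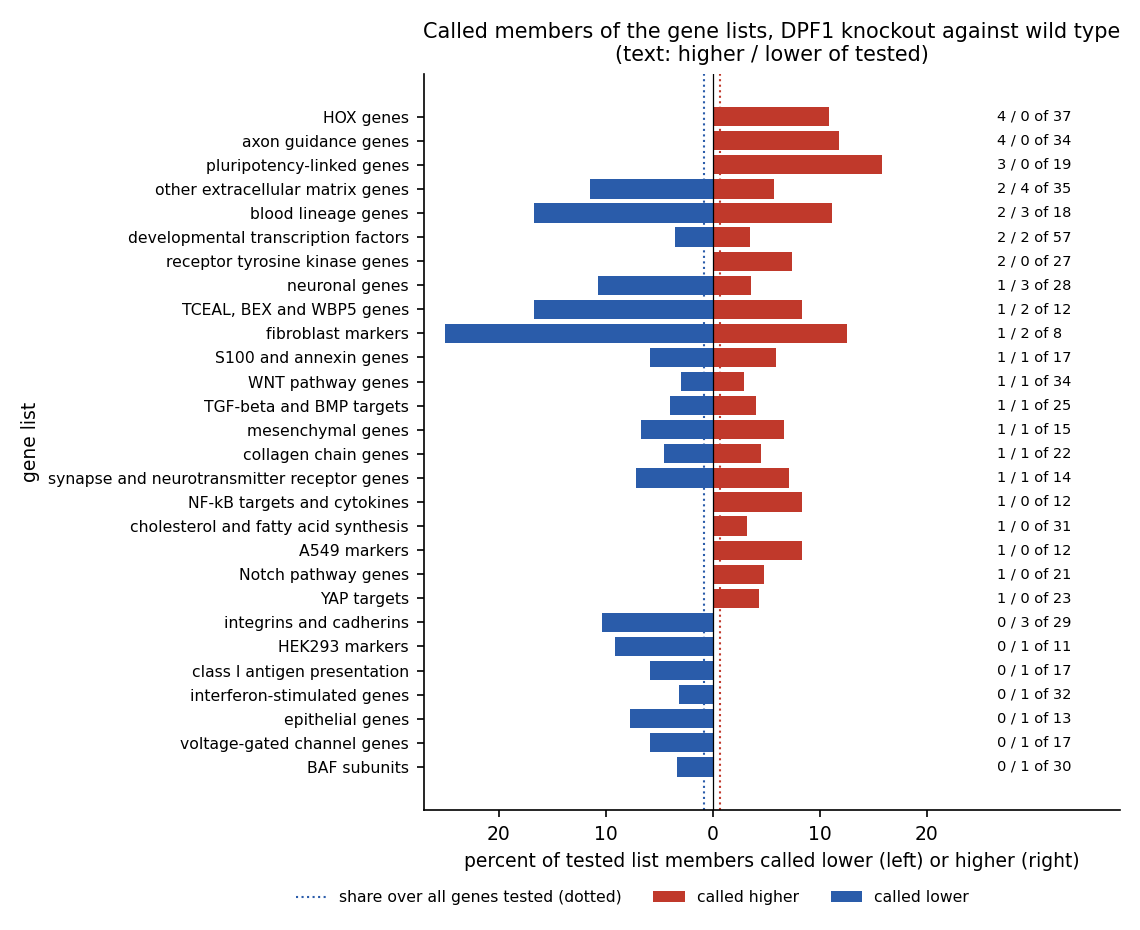
Percent of tested members called lower (blue, to the left) and higher (red, to the right) in the DPF1 clone against wild type, for lists of at least 8 tested genes with a call; numbers at the right are counts higher / lower of those tested, and dotted lines the shares over all genes, 0.668% and 0.823%. HOX, axon guidance and pluripotency-linked genes have higher calls only, integrins and cadherins lower calls only, and most bars rest on 1 gene.

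Called genes were spread over the chromosomes. RefSeq placed 239 of the 241 called and 14865 of the tested genes. Over all tested genes 0.668% were called higher and 0.823% lower. The X chromosome had 8 higher and 12 lower calls among 563 genes (1.42% and 2.13%). Chromosome 2 had 11 and 19 among 987 (1.11% and 1.92%), and chromosome 21 had none among 143. Medians per chromosome lay between -0.02 and 0.01. The X-linked calls include NAP1L2, TMEM47, TNMD, WBP5 and TCEAL8 (lower, with TCEAL8 from 3.53, 4.32 and 3.89 to 0.0905, 0.105 and 0.108 CPM, -5.21, or -6.11 with 1 subtracted from every count) and TENM1, FAM127C, SOX3 and TCEAL2 (higher). TCEAL8 was called lower than wild type in 23 of the 24 clones, and it was not called against the other clones (-0.47, adjusted p = 0.758). Direct neighbours called in the same direction made 9 pairs, 18 genes in all. The share of such pairs over all neighbouring genes is not given. The pairs include, picked after their values were seen, OLFM3 (-1.265) beside COL11A1, PCDH19 beside TNMD, DIRC3 beside IGFBP5 (-1.65 and -1.05) and NFASC beside LRRN2 (1.23 and 2.81).

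A direct comparison with the paralog knockouts asked where the DPF1 clone differed from them. Against the DPF2 clone 151 genes (0.934%) were called higher in the DPF1 clone and 317 (1.96%) lower, and against the DPF3 clone 226 (1.4%) higher and 120 (0.743%) lower. These comparisons share the DPF1 libraries. The largest differences from DPF2 were genes nearly absent from the DPF2 clone. MARC1, a mitochondrial reductase, was at 23.3 ± 2.94 CPM in the DPF1 clone, 24.8 ± 0.685 in wild type and 0.08 ± 0.0257 in the DPF2 clone (SD, n = 3), a difference of 8.08. GTSF1, a small-RNA pathway factor of the germ line, was at 107 ± 2.08 CPM against 0.626 ± 0.0553 in the DPF2 clone (7.402; SD, n = 3), and MB21D1, the DNA sensor cGAS, at 16.7 ± 2.1 against 0.125 ± 0.0878 CPM (6.96; SD, n = 3). Wild type had 89.6 and 8.56 CPM of these, and neither was called in the DPF1 clone against it. Both were higher there without overlap and missed the call by the fold threshold alone. GTSF1 had a log2 fold change of 0.25 (adjusted p = 0.0107) and MB21D1 of 0.96 (adjusted p = 0.00023). HOXC9 (5.88) and FZD10 (6.36) were higher as well. Lower than in the DPF2 clone were STAC (-6.35), KIF5A, a neuronal kinesin (-6.03), NAP1L2 (-6.002), EFS (-4.36) and ZNF660 (-4.14). Values against a nearly absent transcript depend on how the lowest counts are handled: with 1 subtracted from every count, FZD10 gave 8.007, MARC1 9.25, MB21D1 7.599, HOXC9 6.62 and STAC -7.52. By contrast GRIA2, VCAN and FAM127C did not pass against DPF2, with differences of 0.42 (SE 0.24), 0.11 (SE 0.244) and -0.20 (SE 0.158).

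Against the DPF3 clone, VCAN stood at 25.3 ± 2.34 against 0.321 ± 0.0182 CPM (6.26, SE 0.368, adjusted p = 9.10e-21), FAM124B at 5.24 ± 0.972 against 0.0671 ± 0.0261 CPM (6.14) and FAM127C at 29.3 ± 3.83 against 1.28 ± 0.147 CPM (4.49; SD, n = 3 each). FZD10 was at the lowest value in every DPF3 library, so its level in the DPF1 clone was at least 37.7-fold higher with 3 counts per library as the floor. HOXC9 differed by 4.82. FASTKD2 was present in the DPF3 clone (25.6 ± 2.46 CPM, SD, n = 3) and nearly absent in the DPF1 clone (-7.22), and BCHE (-7.14), STAC (-6.07), THSD7B (-5.96) and IAH1 (-4.99) were lower too. With 1 subtracted from every count, FAM124B gave 7.805, BCHE -8.81 and STAC -7.24. COL11A1 was not called between the DPF1 clone and either paralog clone: its means were 0.116 CPM in the DPF1, 0.131 in the DPF2 and 0.102 CPM in the DPF3 clone, against 20.2 CPM in wild type. ISL1 was, with 0.921 CPM against 9.61 in the DPF2 and 4.95 CPM in the DPF3 clone (-3.38 and -2.44, both called).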

How the data were processed

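RNA-seq counts of the knockout table were used for 75 libraries of 25 groups, 3 each. The authors deposited estimated counts per gene. Per the submitters' processing notes Trimmomatic, Bowtie, Picard and DESeq2 are named with GRCh37 and hg19; the sources used here name no version, role, annotation or counting tool. The deposited table's lowest value is 1. The authors also deposited quantile-normalized log2 TPM values, which served only as an alternative. In all, 8 columns matched no single sample and were not used.

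All deposited values are whole numbers and were used as they stand. They were filtered with filterByExpr and TMM-scaled, and fitted with 1 term per group by robust quasi-likelihood in edgeR 4.0.16 (R 4.3.3), which gives every adjusted p unless another tool is named. Alternatives used limma 3.58.1, DESeq2 1.42.0, other filters and thresholds, and libraries left out. The method was tested on simulated data. SDs are over the 3 libraries of a group; standard errors use a spread pooled over all 25 groups. Named genes were: the DPF family and called BAF subunits; the first 15 per direction by fold change against wild type, and by the smaller of both fold changes for both references, among genes of at least 5 CPM without overlap; up to 4 called and 2 uncalled members per list; and 5 per direction against DPF2 and DPF3. Members and lists were chosen with earlier results of these data known.

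Replicate numbers did not pair DPF1 with wild-type libraries (correlations of deviations -0.18, 0.128 and -0.13) or with DPF3 libraries (-0.18, 0.136 and -0.11). For DPF1 and DPF2 all 3 exceeded 0.1 (0.373, 0.125 and 0.194), a pairing seen in the data and not stated in the labels. Some genes counted in the lists are not reported here by name.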

Additional observations from a re-analysis of the deposited data

Results flagged for a closer look

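Some named genes were called in opposite directions against wild type in the DPF1 clone and in a paralog clone. The direct difference between the clones was called too, but its size follows from those changes and adds no evidence. Several of these genes were also named because that difference was large. Each difference is DPF1 clone minus paralog clone on the log2 scale, followed in brackets by the change against wild type in the DPF1 clone and in the paralog clone; wild-type libraries are shared by both changes. Over all genes, 30 were opposite in the DPF2 clone and 22 in the DPF3 clone.

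Against the DPF2 clone, ANXA1 differed by 3.855 (1.238 against -2.617), CDH3 differed by -3.235 (-1.735 against 1.5) and EFS differed by -4.356 (-3.1 against 1.256). In the same comparison FZD10 differed by 6.358 (2.282 against -4.076), KIF5A differed by -6.03 (-2.953 against 3.076) and MAP2 differed by -2.506 (-1.056 against 1.45). Further, NAP1L2 differed by -6.002 (-4.831 against 1.171), TCEAL2 differed by 2.563 (1.279 against -1.284) and TMTC1 differed by 3.435 (2.153 against -1.282). NAP1L2, KIF5A and MAP2, all genes of neurons, were lower in the DPF1 clone and higher in the DPF2 clone than in wild type.

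Against the DPF3 clone, ANXA1 differed by 2.818 (1.238 against -1.58), FAM124B differed by 6.139 (1.275 against -4.864) and FAM127C differed by 4.492 (1.953 against -2.539). The receptors FZD10 and GABRA5 were opposite too: FZD10 differed by 6.65 (2.282 against -4.368) and GABRA5 differed by -3.93 (-2.058 against 1.872). Among the rest, GALNT5 differed by 4.354 (1.772 against -2.581), IAH1 differed by -4.985 (-1.823 against 3.162) and TAL1 differed by -4.795 (-3.062 against 1.733). Finally, TENM1 differed by 3.528 (2.442 against -1.085), THSD7B differed by -5.959 (-2.765 against 3.194) and VCAN differed by 6.261 (2.617 against -3.643). FZD10 and ANXA1 were opposite to the DPF1 clone in both paralog clones. Across the 24 clones FZD10 was called lower than wild type in 20 and higher in 4. ANXA1 was called higher in 11 and lower in 6, so neither pattern is particular to the paralog clones.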

How the results depend on the processing

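No alternative reversed a direction. With the libraries compared fitted alone, 68 genes were called higher and 87 lower than wild type, the adjusted p of DPF1 mRNA was 0.00178, and AXL, CNTN1, EPHB1, HBA2, HOXC11, IFIH1, LEFTY2, MAP2, NRP2 and SEMA3A were among the calls lost; with a mean of at least 1 CPM, 87 were lower than wild type, and 98 were higher and 200 lower than in the DPF2 clone, fewer genes being tested. Without the fold threshold the counts higher and lower were 244 and 207 against wild type, 806 and 536 against the other clones, 393 and 619 against DPF2, and 486 and 231 against DPF3. Leaving out 1 library at a time gave 89 to 109 higher and 110 to 137 lower against wild type, 198 to 210 and 111 to 124 against the other clones, 133 to 145 and 271 to 285 against DPF2, 195 to 220 and 95 to 107 against DPF3, and -1.403 to -1.239 for DPF1 mRNA; 21 of 131 results for named genes lost their call without some library. With the replicate block 111 genes were higher and 138 lower than wild type, and 156 higher and 321 lower than in the DPF2 clone, where the pairing held. DESeq2 called 76 higher and 97 lower than wild type, limma on the log2 TPM values 118 and 138. Of the named genes DESeq2 did not call AXL, CNTN1, EPHB1, HBA2, HOXC11, HOXD11, IFIH1, LEFTY2, NRP2 and THY1. Most called genes lie below 5 CPM, where depth limits the fold changes.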
